A study of Saccharomyces cerevisiae with 12 samples.

Results

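The early loss of Ulp2 was described here as the comparison of ulp2 null cells with WT cells after 50 generations (50G), 3 cultures against 3, chosen by their group and passage labels. These 6 cultures are part of a series of 12, in which the other 6 are the same strains after 500 generations (500G). All are budding yeast (Saccharomyces cerevisiae) of the MHY1379 background, a MATa haploid with auxotrophic alleles of HIS3, LEU2, LYS2, TRP1 and URA3 and with chromosomal ULP2 replaced by HIS3, so that both groups lack the chromosomal gene. The ulp2 null cells had lost their ULP2 plasmid on 5-FOA medium and were then given the empty vector YCplac33, a centromeric plasmid with URA3 as its marker. The WT cells carried YCplac33 with ULP2. By the study's methods RNA was taken in mid-exponential growth. Whether growth phase or the glucose left in the medium differed between the groups was not tested. The study followed the copy number of chromosomes I and XII in these cells, and the genes with systematic names starting with YA and YL were therefore set apart throughout. Copy number itself was not measured in the values used here.

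Ulp2 is a protease that removes the small protein SUMO from other proteins, and above all takes apart chains of SUMO. Substrates of SUMO in yeast include nucleolar, centromere and transcription proteins, and cells without Ulp2 grow poorly and missegregate chromosomes. An extra chromosome raises the dose of many proteins at once, and budding yeast with extra chromosomes are known for a load on the protein folding machinery.

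The values are FPKM (fragments mapped to a gene, scaled by its length and by the total of mapped fragments), 1 column per culture, for 7126 genes. They hold no counts, so the depth behind a value is unknown. Tests were run with limma on log2(FPKM + 1), for the 6572 genes whose mean over the 12 cultures reached 1 FPKM, and a log2 difference is ulp2 null 50G minus WT 50G on that scale, with its standard error (SE) and a Benjamini-Hochberg adjusted p; the scale understates the change of weakly expressed genes. A gene was called at an adjusted p under 0.05. The labels do not say that the 3 cultures of a group were separate lines, so p-values may measure only the spread between cultures of 1 line. Fewer cells expressing a gene and less RNA of it per cell cannot be told apart in such bulk samples. RRT15, a gene next to the rDNA on chromosome XII, stood apart in a single culture: it was at 37456, 22.2 and 150.4 FPKM in ulp2 null 50G cells, against 23.3, 10.8 and 25.8 FPKM in WT 50G cells, and it was not called (adjusted p = 0.0914).

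The strain markers were read first. ULP2 (YIL031W, chromosome IX) was at 0.0926, 0 and 0.118 FPKM in ulp2 null 50G cells, against 206, 217 and 207 FPKM in WT 50G cells (log2 difference -7.62, SE 0.19, adjusted p = 1.92e-09). URA3 was at 45.2, 48.7 and 40.1 FPKM in ulp2 null 50G cells, against 2071, 2169 and 2388 FPKM in WT 50G cells (log2 difference -5.60, SE 0.08, adjusted p = 1.78e-11), although both groups are described as carrying a plasmid with this marker. TRP1 was at 0, 0 and 0.132 FPKM in ulp2 null 50G cells, against 37.96, 38.3 and 36.3 FPKM in WT 50G cells (log2 difference -5.21, SE 0.14, adjusted p = 4.84e-09), and YDR008C, a dubious reading frame on the other strand of TRP1, fell with it (log2 difference -6.79). The ulp2 null 50G and WT 50G cultures thus differed at URA3 and TRP1 as well as at ULP2, and the part of these markers in any later result was not tested. YIL030W-A, which neighbours ULP2, fell to 2.84, 6.07 and 3.22 FPKM in ulp2 null 50G cells, against 44.3, 36.2 and 25.4 FPKM in WT 50G cells (log2 difference -2.87). HIS3 and LEU2 were called lower by less than 1 log2 unit (-0.46 and -0.40), both lost with libraries scaled to an equal sum, and LYS2 was not called (-0.02, adjusted p = 0.833). Of the 7 a-specific genes, which mark the mating type of the labels, 1 was called (ASG7, log2 difference 0.35).

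Across the genome, 36.9% of the 6572 genes were called, 18.7% higher and 18.1% lower in ulp2 null 50G cells (1232 and 1191 genes). Over 2-fold, 3.86% were higher and 1.13% lower (254 and 74 genes). The genes of chromosomes I and XII accounted for much of the first group and little of the second. Of the 557 genes of chromosome XII tested, 452 were higher and 10 lower, and of the 116 genes of chromosome I, 78 were higher and 4 lower. Among the 5884 genes elsewhere 11.9% were higher and 20.0% lower (702 and 1177 genes), with 120 higher and 71 lower over 2-fold. The split between directions outside chromosomes I and XII depended on the scale: with libraries scaled to an equal sum over genes that are neither on these chromosomes nor ribosomal, 1474 were higher and 416 lower, and the median log2 difference of all genes moved by 0.22. Small negative differences therefore lose their sign on that scale.

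Chromosomes I and XII stood apart from the other 14 as whole chromosomes. The median log2 difference was 0.59 over chromosome I (1.51-fold) and 0.69 over chromosome XII (1.62-fold), against -0.06 over the genes elsewhere, where the chromosome medians ran between -0.11 (chromosome IV) and 0.01 (chromosome X). Relative to the WT 50G mean, the 3 ulp2 null 50G cultures had medians of 0.63, 0.60 and 0.58 for chromosome I and of 0.74, 0.70 and 0.70 for chromosome XII, and the 3 WT 50G cultures had medians of -0.02, 0.02 and 0.01 for chromosome I and of -0.01, 0.01 and 0.00084 for chromosome XII. The cultures of a group lay close together and the groups did not overlap for either chromosome. For each chromosome the exact two-sided permutation test over the 6 culture medians gave p = 0.1, the smallest that 3 against 3 allows. Genes of chromosome XII held 13.5% ± 1.14 of the summed FPKM in the ulp2 null cultures at 50G, against 7.68% ± 0.095 in their WT counterparts (mean ± SD of 3 cultures per group). The ulp2 null 50G culture with the high RRT15 value had the highest share, 14.7%, and the other cultures of that group had 12.6% and 13.1%. RRT15 is among the genes summed, so its high value raised the share of that culture and the group mean. The share without RRT15 was not computed.

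**Figure D1:**
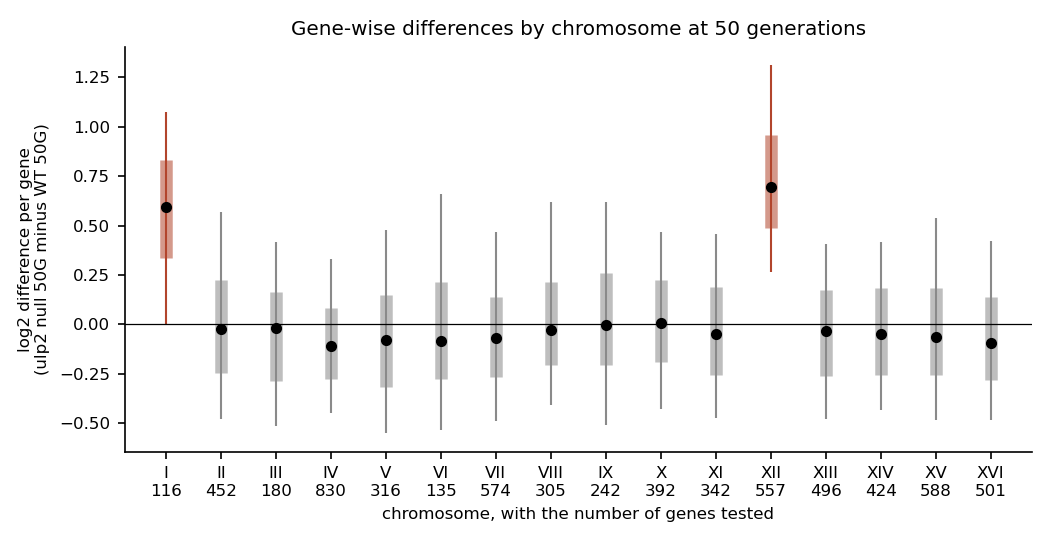
Log2 difference per gene (ulp2 null 50G minus WT 50G, y axis) for the genes of each chromosome (x axis, with the number tested); points are medians, thick bars the middle 50% of genes and thin lines the 10th to 90th percentile. Chromosomes I (median 0.59) and XII (0.69) lie above the other 14, whose medians lie between -0.11 and 0.01.

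The shift was spread over the whole of both chromosomes. In 12 consecutive windows of 90 kb along chromosome XII the medians lay between 0.55 and 0.92, and in 8 windows of 30 kb along chromosome I between 0.44 and 0.74, without a window near the level of the other chromosomes. The lowest window of chromosome XII was the one that holds the rDNA (25 of 43 genes higher) and the highest was at its right end (29 of 30 higher). Genes left of the rDNA had a median of 0.70 (182 of 209 higher) and genes right of it 0.70 (239 of 282 higher). Split into 3 equal bins by rising expression level, genes had medians of 0.73, 0.66 and 0.70 on chromosome XII and of 0.72, 0.63 and 0.53 on chromosome I. Single genes spread around these medians: on chromosome XII 133 genes were above 1, 279 between 0.5 and 1, 121 between 0 and 0.5, and 24 at or below 0. The 15 RNA genes of these chromosomes without such systematic names, among them SNR61, were noisy and none was called in limma, with 2 at an unadjusted p under 0.05.

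**Figure D2:**
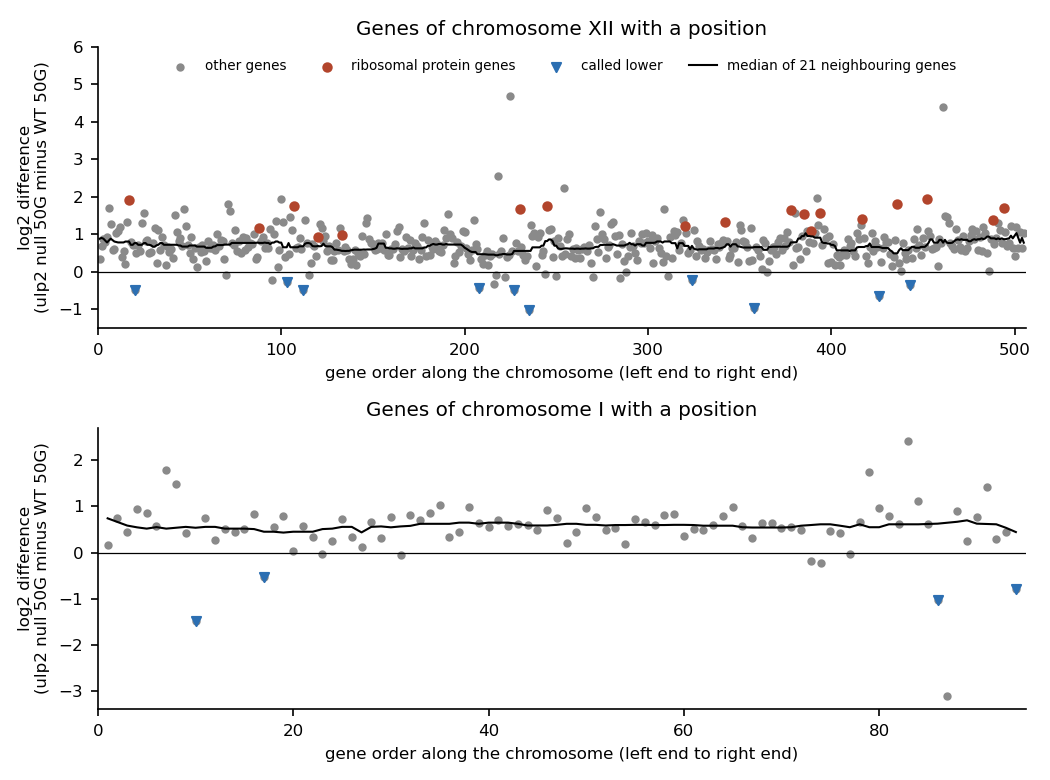
Log2 difference per gene (ulp2 null 50G minus WT 50G, y axis) in the order of genes along chromosome XII (upper panel) and chromosome I (lower panel); red points are ribosomal protein genes, blue triangles genes called lower, and the line is the median of 21 neighbouring genes. The line stays between 0.44 and 1.03 on chromosome XII and between 0.43 and 0.74 on chromosome I, so no stretch of 21 genes lies at 0.

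Among the genes of these chromosomes that the study discusses are 3 that code for proteins. CCR4 (YAL021C, chromosome I), the main cytoplasmic deadenylase, was at 45.1, 50.4 and 58.4 FPKM in ulp2 null 50G cells, against 34.2, 39.01 and 37.7 FPKM in WT 50G cells (log2 difference 0.46, SE 0.11, adjusted p = 0.00771). CLN3 (chromosome I), the G1 cyclin that starts the cell cycle, was at 59.1, 51.8 and 54.6 FPKM in ulp2 null 50G cells, against 45.7, 41.5 and 44.1 FPKM in WT 50G cells (log2 difference 0.33, SE 0.08, adjusted p = 0.00898). CCW12 (chromosome XII), a cell wall mannoprotein, was at 11306, 12229.8 and 12349 FPKM in ulp2 null 50G cells, against 6398, 9194 and 9192 FPKM in WT 50G cells (log2 difference 0.55, SE 0.13, adjusted p = 0.00633). All 3 were higher in every ulp2 null 50G culture than in any WT 50G culture, and all 3 differences were smaller than the median of their chromosome.

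Further up the range, 120 genes of chromosome XII and 14 of chromosome I rose over 2-fold. NCW2, a cell wall protein, had 784, 1101 and 1137 FPKM in ulp2 null 50G cells, against 158, 246 and 239 FPKM in WT 50G cells (log2 difference 2.24, SE 0.20, adjusted p = 9.76e-06). YLR412C-A had the largest called rise of chromosome XII, 25.8, 40.1 and 39.5 FPKM in ulp2 null 50G cells, against 0, 1.200 and 1.12 FPKM in WT 50G cells (log2 difference 4.41, SE 0.63, adjusted p = 0.000282). YLR120W-A and YLR124W followed with log2 differences of 2.11 and 2.03. YLR299C-A was called at 2.01, but its cultures spread widely, and with a single culture left out the call was lost without ulp2 null 50G replicate 1 or 2 or WT 50G replicate 2 or 3 (between 1.66 and 2.001). The largest called rises of chromosome I were DFP2 at 74.5, 75.7 and 61.5 FPKM in ulp2 null 50G cells, against 13.1, 9.72 and 14.5 FPKM in WT 50G cells (log2 difference 2.42, adjusted p = 0.0336, lost with a pseudocount of 0.1 and when any single culture was left out, with log2 differences between 2.27 and 2.53), YAR030C (1.81), YAL064W (1.79, not called with a pseudocount of 0.1), PAU7 (1.74) and YAL063C-A (1.49). PAU7 belongs to the seripauperin family, whose near-identical copies make its value uncertain.

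Only 14 of the 673 genes of these chromosomes were called lower, and most of them are enzymes of carbon or energy metabolism. GDH3 (chromosome I), a glutamate dehydrogenase of non-fermenting cells, had 755, 797 and 774 FPKM in ulp2 null 50G cells, against 2117, 2251 and 2178 FPKM in WT 50G cells (log2 difference -1.49, SE 0.06, adjusted p = 8.18e-08). YAT1 (chromosome I), a carnitine acetyltransferase, had a log2 difference of -1.02, and ACS1 (chromosome I), an acetyl-CoA synthetase used without glucose, of -0.53. On chromosome XII, IDP2, the cytosolic NADP isocitrate dehydrogenase, had 567, 551 and 544 FPKM in ulp2 null 50G cells, against 1096, 1121 and 1181 FPKM in WT 50G cells (log2 difference -1.03, SE 0.07, adjusted p = 1.86e-06). ACO1 (aconitase) had a log2 difference of -0.96, FBP1 (fructose-1,6-bisphosphatase) of -0.65, SDH2 (succinate dehydrogenase) of -0.49, the SDH4 paralog SHH4 of -0.49, COX8 of -0.35, ACS2 of -0.42 and PDC1 (pyruvate decarboxylase) of -0.26. With libraries scaled to an equal sum the calls of 6 of the 14 were lost: SHH4 (-0.27), COX8 (-0.12), ACS2 (-0.19), PDC1 (-0.04), NRS1 (-0.25) and BOP2 (0.00). With a single culture left out, the call of SHH4 was also lost without ulp2 null 50G replicate 2 or 3 or WT 50G replicate 1, 2 or 3 (between -0.56 and -0.39) and that of COX8 without ulp2 null 50G replicate 1, 2 or 3 or WT 50G replicate 1 or 2 (between -0.40 and -0.24). The call of PDC1 was lost without ulp2 null 50G replicate 1 or 3 or WT 50G replicate 2 (between -0.28 and -0.19), that of NRS1 without ulp2 null 50G replicate 2 or WT 50G replicate 2 (between -0.45 and -0.37) and that of BOP2 without ulp2 null 50G replicate 3 or WT 50G replicate 1 (between -0.21 and -0.17). PHO11 (chromosome I), an acid phosphatase with a near-identical copy, fell by 0.80 on the log2 scale.

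The ribosomal protein (RP) genes were the group with the highest median. All 56 small-subunit genes and 75 of 81 large-subunit genes were called higher and none lower, with medians of 0.95 and 0.90 beside -0.02 over all genes. Outside chromosomes I and XII, 114 of 119 RP genes rose (median 0.89). Those named by the study lay in that range: RPL32 had 1483, 1505 and 1463 FPKM in ulp2 null 50G cells, against 698, 729 and 788 FPKM in WT 50G cells (log2 difference 1.01), RPL12B 603, 622 and 621 FPKM in ulp2 null 50G cells, against 271, 311 and 337 FPKM in WT 50G cells (log2 difference 1.01) and RPS18B 534, 660.2 and 606 FPKM in ulp2 null 50G cells, against 264, 282 and 282 FPKM in WT 50G cells (log2 difference 1.12). None of these groups of cultures overlapped. The 6 large-subunit genes that were not called were RPL15B (0.09), RPL41B (0.33), RPL36B (0.55), RPL39 (0.69), RPL22A (0.94) and RPL43A (1.38).

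The 18 RP genes on chromosome XII spanned log2 differences of 0.94 to 1.95, against 0.09 to 1.38 for the 119 elsewhere. Their median was 1.57, and it exceeded the median of all genes of chromosomes I and XII by 0.89, while the RP genes elsewhere exceeded the median of the other genes by 0.94. Most yeast RPs are encoded by a pair of genes for nearly the same protein, and 14 pairs had a copy on chromosome XII and a copy elsewhere. In all 14 the copy on chromosome XII had the larger log2 difference, by a median of 0.84 (range 0.0027 to 1.43). RPL8B (chromosome XII) had 361, 408 and 416 FPKM in ulp2 null 50G cells, against 83.1, 118 and 116 FPKM in WT 50G cells (log2 difference 1.91, SE 0.18, adjusted p = 1.38e-05), and its partner RPL8A (chromosome VIII) had 157, 176 and 175 FPKM in ulp2 null 50G cells, against 102, 131 and 132 FPKM in WT 50G cells (log2 difference 0.48, SE 0.16, adjusted p = 0.0343), a call lost without ulp2 null 50G replicate 2 or 3 or WT 50G replicate 1 (between 0.36 and 0.46). RPL37A (chromosome XII) had 2177, 2227 and 2197 FPKM in ulp2 null 50G cells, against 667, 656 and 622 FPKM in WT 50G cells (log2 difference 1.76), and RPL37B (chromosome IV) 1965, 2069.7 and 1804 FPKM in ulp2 null 50G cells, against 1429, 1195 and 1288 FPKM in WT 50G cells (log2 difference 0.58). For RPL15 the copy on chromosome XII rose (RPL15A, 1.18) and the copy on chromosome XIII was not called (RPL15B, 0.09). The difference between copies was smallest for RPL22, whose copy on chromosome XII, RPL22A, was at only 3.14, 9.31 and 6.93 FPKM in ulp2 null 50G cells, against 2.28, 2.91 and 2.73 FPKM in WT 50G cells. The authors kept reads with a single location, so values of near-identical copies rest on the bases in which they differ.

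**Figure D3:**
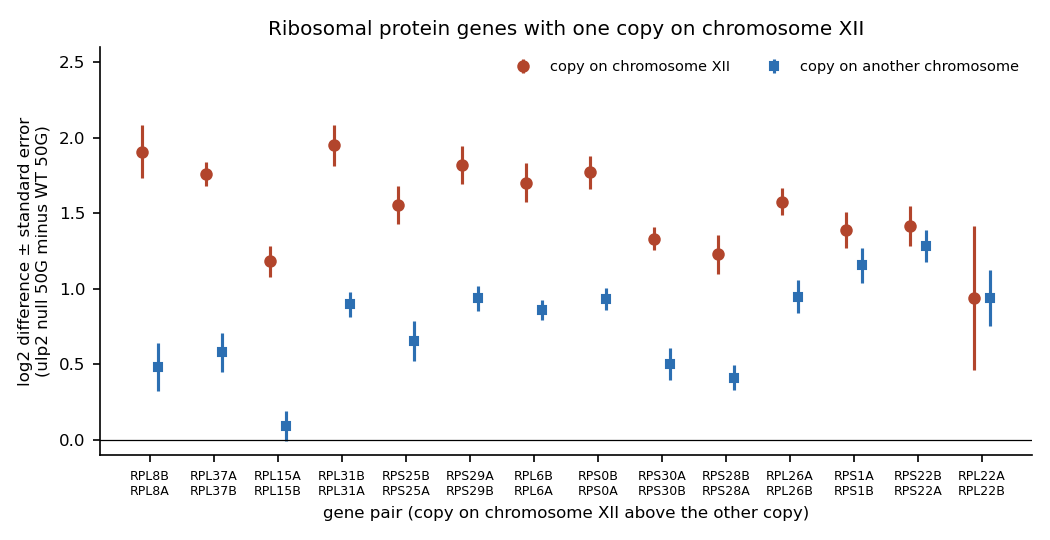
Log2 difference ± SE (ulp2 null 50G minus WT 50G, y axis) of the 14 ribosomal protein gene pairs (x axis) with a copy on chromosome XII (red circles) and a copy on another chromosome (blue squares). The red circle is above the blue square in every pair, by between 0.0027 and 1.43.

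The factors that assemble ribosomes showed much smaller shares of risers than the RP genes. Of 75 assembly factors of the small subunit 20 were higher and 2 lower (median 0.10), and of 75 of the large subunit 15 were higher and 6 lower (median 0.06). Of these 35 rises 20 lay on chromosomes I and XII, and outside them 10 of 64 and 5 of 65 were higher. Among all genes outside these chromosomes 11.9% were higher, so the assembly factors there lay near that share. The largest were all of chromosome XII: SOF1 (1.22), EMG1 (1.12), SGD1 (1.09) and NOP56 (1.02) for the small subunit, and BUD20 (1.17), REA1 (1.09), DRS1 (0.92) and AFG2 (0.89) for the large one. SOF1, part of the U3 processome, had 45.7, 41.98 and 40.8 FPKM in ulp2 null 50G cells, against 17.7, 17.6 and 18.2 FPKM in WT 50G cells. Of 36 genes for RNA polymerases I and III and their factors 4 were higher and 4 lower, and of 38 translation factors 8 were higher, 5 of them on chromosomes I and XII, and 4 lower. The shares over all genes tested were 18.7% higher and 18.1% lower. Among 13 regulators of RP genes, IFH1 (chromosome XII), the coactivator that works at RP promoters, had 118, 129 and 111 FPKM in ulp2 null 50G cells, against 40.3, 51.8 and 55.8 FPKM in WT 50G cells (log2 difference 1.27, SE 0.22, adjusted p = 0.000979), and SFP1 (chromosome XII) rose by 0.45. DOT6, a repressor of ribosome assembly genes, rose by 0.68. RAP1, the DNA-binding factor of RP promoters, was called lower (-0.27, lost with an equal sum at -0.05 and without ulp2 null 50G replicate 1 or 2 or WT 50G replicate 2 or 3 (between -0.28 and -0.22)), and FHL1 was not called (-0.22, adjusted p = 0.248).

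Apart from the strain markers, the gene list with the lowest median was carbon metabolism for growth without glucose. Of 11 genes of the glyoxylate cycle and gluconeogenesis 10 fell and none rose (median -1.03). MLS1, the malate synthase, had 659.5, 647 and 683 FPKM in ulp2 null 50G cells, against 2194, 2174 and 2176 FPKM in WT 50G cells (log2 difference -1.72, SE 0.07, adjusted p = 7.6e-08). ICL1, the isocitrate lyase, had 1663, 1775 and 1893 FPKM in ulp2 null 50G cells, against 4758, 4773 and 4682 FPKM in WT 50G cells (log2 difference -1.42, SE 0.07, adjusted p = 1.54e-07). PCK1, which feeds gluconeogenesis, had 3861, 3465 and 3551 FPKM in ulp2 null 50G cells, against 8278, 8576 and 8353 FPKM in WT 50G cells (log2 difference -1.21, SE 0.08, adjusted p = 2.03e-06). In each of these genes every ulp2 null 50G culture was below every WT 50G culture. ACH1 (-1.35), SFC1 (-1.03), CIT2 (-0.43) and MDH2 (-0.38) also fell, and so did IDP2, FBP1 and ACS1 on chromosomes I and XII. CIT2 and MDH2 were not called with an equal sum (-0.20 and -0.15). DAL7 was not called (-0.02).

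The TCA cycle fell almost whole: 19 of 20 genes were lower and none higher (median -0.86), among them at least 1 gene of every step from citrate synthase to malate dehydrogenase. CIT1, the mitochondrial citrate synthase, had 1588, 1402 and 1411 FPKM in ulp2 null 50G cells, against 3429, 2973 and 2869.8 FPKM in WT 50G cells (log2 difference -1.07, SE 0.09, adjusted p = 5.4e-06), and CIT3 had 93.9, 92.6 and 91.6 FPKM in ulp2 null 50G cells, against 280.3, 260.1 and 261 FPKM in WT 50G cells (log2 difference -1.52, SE 0.07, adjusted p = 1.07e-07). SDH3, the membrane subunit of succinate dehydrogenase, had 1162, 1082 and 943 FPKM in ulp2 null 50G cells, against 3192, 3341 and 3141 FPKM in WT 50G cells (log2 difference -1.61, SE 0.14, adjusted p = 7.59e-06). Isocitrate dehydrogenase (IDH1 -1.20, IDH2 -0.80), ketoglutarate dehydrogenase (KGD1 -0.72, KGD2 -0.92, LPD1 -0.75), succinyl-CoA ligase (LSC1 -0.38, LSC2 -0.52), fumarase (FUM1 -1.03) and malate dehydrogenase (MDH1 -0.57) were all called lower, LSC1 not with an equal sum (-0.15). The 3 members on chromosome XII, ACO1 (-0.96), SHH4 (-0.49) and SDH2 (-0.49), fell although their chromosome as a whole shifted up by 0.69.

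Respiration followed. Of 24 genes of the respiratory chain 17 fell and 2 rose (median -0.62), and of 15 subunits of the ATP synthase 11 fell and none rose (median -0.58). NDE2, an external NADH dehydrogenase, had 125, 132 and 137 FPKM in ulp2 null 50G cells, against 348, 365 and 369 FPKM in WT 50G cells (log2 difference -1.45, SE 0.11, adjusted p = 3.07e-06). ATP1 had 1507, 1136 and 1029 FPKM in ulp2 null 50G cells, against 2175, 2159 and 2117 FPKM in WT 50G cells (log2 difference -0.83, SE 0.12, adjusted p = 0.000383). Of the 13 genes of the HAP complex and heme synthesis 7 fell, among them HEM1 (-0.57), the first step of heme synthesis, and 1 rose: HAP1, on chromosome XII (0.42). HAP4, the activating subunit of the HAP complex, had 250.0, 234 and 249 FPKM in ulp2 null 50G cells, against 284, 339 and 349.7 FPKM in WT 50G cells (log2 difference -0.40, adjusted p = 0.03, lost with an equal sum at -0.17 and without ulp2 null 50G replicate 1, 2 or 3 or WT 50G replicate 2 or 3 (between -0.42 and -0.34)). Of 71 genes of the mitochondrial ribosome 24 fell and 2 rose, with a median of -0.20 that became 0.03 with libraries scaled to an equal sum. Fatty acid oxidation (9 of 14 lower, 2 higher, median -0.39) fell with CRC1 (-1.06), CAT2 (-0.89), TES1 (-0.85) and FOX2 (-0.83).

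The 2 risers of the respiratory chain were the hypoxic isoforms of subunits whose aerobic isoforms fell. COX5B, the form of cytochrome c oxidase subunit 5 made without oxygen, had 179, 193 and 192 FPKM in ulp2 null 50G cells, against 83.1, 77.02 and 81.99 FPKM in WT 50G cells (log2 difference 1.21, SE 0.07, adjusted p = 5.31e-07), while the aerobic COX5A had 968, 987 and 928 FPKM in ulp2 null 50G cells, against 2107, 1954 and 1920.4 FPKM in WT 50G cells (log2 difference -1.05, SE 0.08, adjusted p = 5.43e-06). CYC7, the hypoxic cytochrome c, had 349, 331 and 318 FPKM in ulp2 null 50G cells, against 115, 104 and 123 FPKM in WT 50G cells (log2 difference 1.54, SE 0.10, adjusted p = 1.41e-06), while CYC1 had 459.7, 484 and 468 FPKM in ulp2 null 50G cells, against 1112, 1221 and 1289.6 FPKM in WT 50G cells (log2 difference -1.36, SE 0.07, adjusted p = 5.4e-07). Another pair moved the same way: ANB1, the hypoxic form of the translation factor eIF5A, had 29.6, 38.9 and 26.9 FPKM in ulp2 null 50G cells, against 17.6, 14.7 and 18.8 FPKM in WT 50G cells (log2 difference 0.85, SE 0.15, adjusted p = 0.000898), and its aerobic form HYP2 had 1264, 1173 and 977 FPKM in ulp2 null 50G cells, against 1787, 1653 and 1652 FPKM in WT 50G cells (log2 difference -0.58, SE 0.11, adjusted p = 0.00158). In all 3 pairs the aerobic form remained the more abundant in both groups on the FPKM scale, as the plot of levels by culture shows. Of the 16 hypoxic genes 11 rose and 2 fell (median 0.63), the risers including the cell wall mannoproteins DAN1 (1.16), TIR1 (1.18) and TIR2 (0.85). The fallers were OLE1, the fatty acid desaturase (-1.02), and HEM13 (-0.53), which are also induced without oxygen. ROX1, the heme-dependent repressor of hypoxic genes, was not called (-0.16, adjusted p = 0.455).

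**Figure D4:**
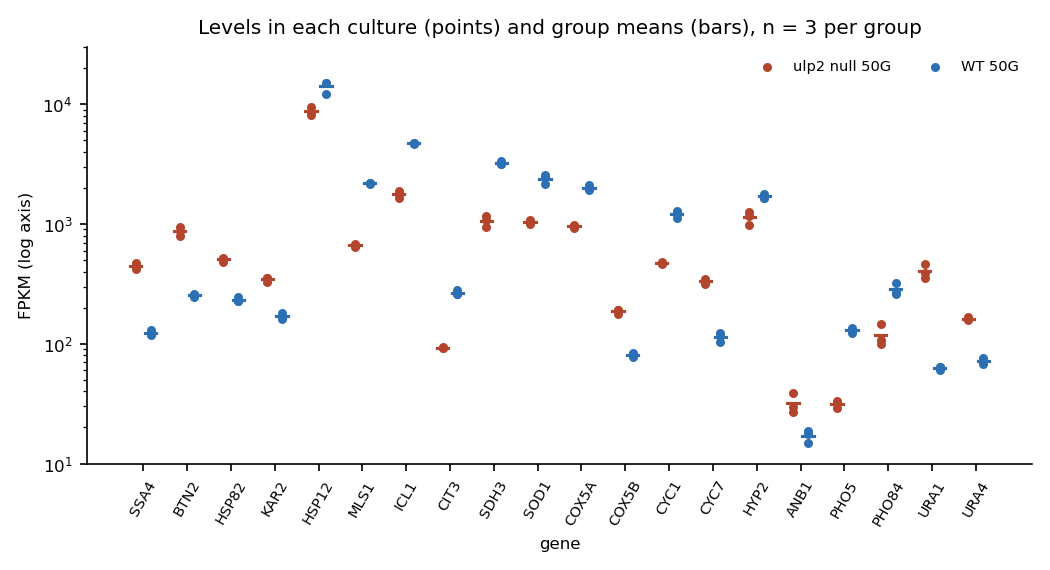
FPKM (y axis, log scale) of 20 genes (x axis) in each ulp2 null 50G culture (red points, left of each pair) and each WT 50G culture (blue points, right), with group means as bars (n = 3 each). The chaperones SSA4, BTN2, HSP82 and KAR2, the hypoxic isoforms COX5B, CYC7 and ANB1, and URA1 and URA4 are higher in the ulp2 null cultures, and the other 11 genes are lower, with no overlap of the groups.

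Glycolysis and fermentation also fell in part, with 21 of 34 genes lower and 4 higher (median -0.40). TDH1, an isoform of glyceraldehyde-3-phosphate dehydrogenase, had 2627, 2846 and 2692 FPKM in ulp2 null 50G cells, against 4759.6, 6102 and 5795 FPKM in WT 50G cells (log2 difference -1.02, SE 0.09, adjusted p = 9.76e-06). ENO1 (enolase, -0.96) and ALD6 (cytosolic acetaldehyde dehydrogenase, -0.94) fell with it, and the main isoform of enolase, ENO2, was not called (0.01). The hexokinase HXK2 rose (0.31). PDC5 (chromosome XII) rose by 1.11, while its major isoform PDC1, on the same chromosome, fell by 0.26 on the log2 scale (not called with an equal sum). Of 16 genes of trehalose and glycogen 5 fell and 2 rose, led by GLG2 (-1.01), which primes glycogen. Of 19 hexose transporters 4 rose and 1 fell (median 0.36), none by over 2-fold.

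**Figure D5:**
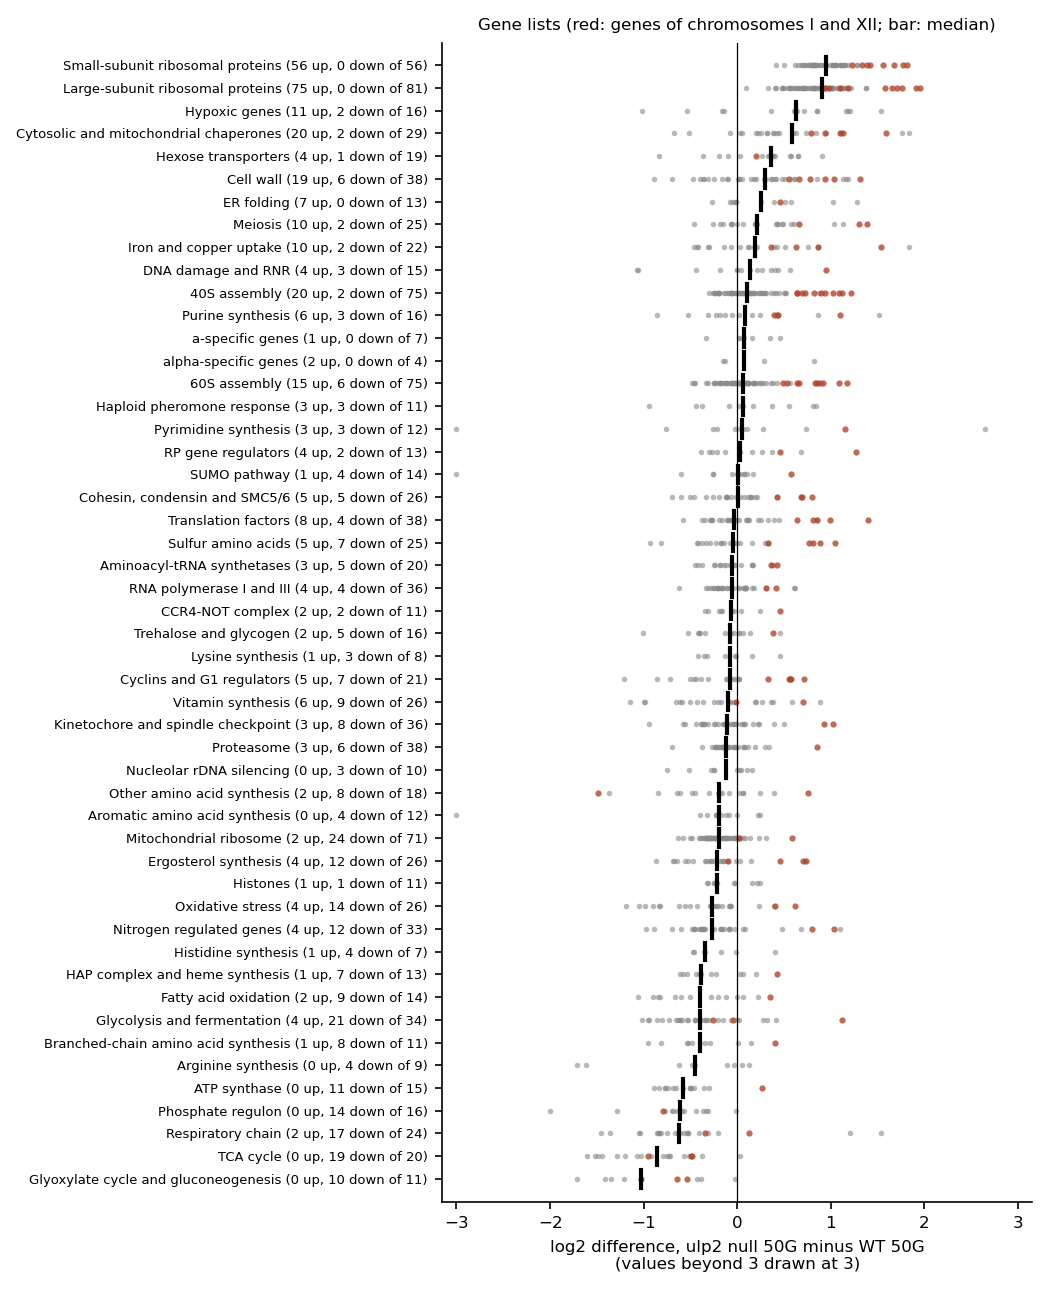
Log2 difference per gene (ulp2 null 50G minus WT 50G, x axis, values beyond 3 drawn at 3) for 50 gene lists (rows, with how many genes of how many tested were called up or down); grey points are genes outside chromosomes I and XII, red points genes on them, and black bars list medians. Ribosomal proteins (medians 0.95 and 0.90) are at the top and the TCA cycle (-0.86) and the glyoxylate cycle (-1.03) at the bottom, and red points mostly lie at the right end of a list.

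Protein folding genes rose. Of 29 cytosolic and mitochondrial chaperones 20 were higher and 2 lower (median 0.58), and outside chromosomes I and XII 15 of 24 were higher. SSA4, an Hsp70 that is made under heat stress, had 435, 474 and 422 FPKM in ulp2 null 50G cells, against 122, 129.5 and 119 FPKM in WT 50G cells (log2 difference 1.84, SE 0.12, adjusted p = 1.48e-06). BTN2, which gathers misfolded proteins into deposits, had 796, 949.8 and 866 FPKM in ulp2 null 50G cells, against 246, 261 and 258 FPKM in WT 50G cells (log2 difference 1.77, SE 0.23, adjusted p = 0.000167). HSP82, the inducible Hsp90, had 514, 519.6 and 483 FPKM in ulp2 null 50G cells, against 226, 247 and 229 FPKM in WT 50G cells (log2 difference 1.11, SE 0.10, adjusted p = 1.44e-05). On chromosome XII, the Hsp90 cochaperone CPR6 rose by 1.59, the disaggregase HSP104 by 1.13 and the mitochondrial HSP60 by 1.10, all above the median of that chromosome. The fallers were the small heat shock proteins HSP12 (-0.68) and HSP26 (-0.51), which are also driven by the general stress factors Msn2 and Msn4. HSF1, the heat shock factor, was not called (0.13, adjusted p = 0.478). Of 13 genes for folding in the endoplasmic reticulum 7 rose and none fell, led by ERO1 (1.28), which oxidizes disulfides, and KAR2 (1.03), the Hsp70 of that compartment, whereas PDI1 was not called (-0.02). Of 38 proteasome genes 3 rose and 6 fell (median -0.12, 0.11 with an equal sum).

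The stretches upstream of SSA4, BTN2 and HSP82, chaperone genes outside chromosomes I and XII, are shown because each holds the inverted repeat TTCNNGAA. This core of the heat shock element stands in capitals. They were read 5' to 3' on the coding strand from the RefSeq R64 genome.
SSA4: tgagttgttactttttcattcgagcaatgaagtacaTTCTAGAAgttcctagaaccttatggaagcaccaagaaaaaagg
BTN2: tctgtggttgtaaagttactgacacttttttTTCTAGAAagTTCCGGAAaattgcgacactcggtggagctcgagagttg
HSP82: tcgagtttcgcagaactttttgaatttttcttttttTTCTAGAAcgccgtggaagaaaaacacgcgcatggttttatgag
They lie at chrV:364300-364379 (plus strand), chrVII:772079-772158 (plus strand) and chrXVI:98817-98896 (minus strand). In windows from 500 to 100 bases before the start codon, 17 of the 20 chaperone genes that rose held TTCNNGAA (the motif is its own reverse complement and was counted on both strands), as did 1 of the 2 that fell, 3 of the 7 that were not called and 18.0% of the 5896 tested genes with such a window. Many of these chaperones are textbook targets of Hsf1, and the share was not tested. HSP26 fell and holds the motif in its window, and SSA3, which rose by as much as HSP82 (1.11), does not.

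Genes against oxidative stress went the other way from the chaperones. Of 26 genes 14 fell and 4 rose (median -0.27). Across the scalings, filters and fits tried, that median ran from -0.28 to -0.04, with between 9 and 15 genes lower. SOD1, the cytosolic superoxide dismutase, had 1056, 1083 and 1002 FPKM in ulp2 null 50G cells, against 2148, 2558 and 2462 FPKM in WT 50G cells (log2 difference -1.19, SE 0.10, adjusted p = 6.65e-06). The mitochondrial SOD2 (-0.99), the flavohemoglobin YHB1 (-1.05), the peroxiredoxin TSA1 (-0.90) and the catalase CTT1 (-0.83) fell too. Of the 4 that rose, TRX1 (0.40) and AHP1 (0.61) lie on chromosome XII. Also lower were genes of desiccation and osmotic stress, which this list does not hold: SIP18 had 1779, 2335 and 2168 FPKM in ulp2 null 50G cells, against 15266, 14664 and 16055 FPKM in WT 50G cells (log2 difference -2.88, SE 0.12, adjusted p = 1.06e-07), and GRE1 had 247, 362 and 325 FPKM in ulp2 null 50G cells, against 812, 1118 and 1187 FPKM in WT 50G cells (log2 difference -1.74, SE 0.18, adjusted p = 3.59e-05). For both genes all cultures of the groups were apart by more than the spread within a group.

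Metal uptake was mixed, with 10 of 22 iron and copper genes higher and 2 lower (median 0.19). FIT3, a cell wall mannoprotein that holds iron siderophores, had 2148, 2520.3 and 2519.7 FPKM in ulp2 null 50G cells, against 500.0, 797 and 748 FPKM in WT 50G cells (log2 difference 1.84, SE 0.15, adjusted p = 6.49e-06). TIS11 (chromosome XII), which degrades messages of iron-using proteins, had 98.4, 103 and 109 FPKM in ulp2 null 50G cells, against 33.2, 34.8 and 36.96 FPKM in WT 50G cells (log2 difference 1.54, SE 0.12, adjusted p = 4.83e-06). ENB1 (0.86), FRE1 on chromosome XII (0.87), FET3 (0.43) and FIT2 (0.51) rose, while ARN1 (0.03), SIT1 (-0.07), FTR1 (-0.31) and FIT1 (-0.14) were not called.

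The phosphate regulon fell, with 14 of 16 genes lower and none higher (median -0.62). PHO5, the repressible acid phosphatase, had 32.8, 28.95 and 32.99 FPKM in ulp2 null 50G cells, against 129, 136 and 123 FPKM in WT 50G cells (log2 difference -2.00, SE 0.08, adjusted p = 7.6e-08). PHO84, the high-affinity phosphate transporter, had 146, 99.6 and 107 FPKM in ulp2 null 50G cells, against 321, 272 and 258 FPKM in WT 50G cells (log2 difference -1.28, SE 0.19, adjusted p = 0.000391). The polyphosphate synthase subunits VTC1 (-0.70), VTC2 (-0.31, not called with an equal sum) and VTC4 (-0.62) were lower, and VTC3 was not called (-0.01). PHO3 (-0.77), a constitutive phosphatase next to PHO5 that is not induced by phosphate starvation, fell as well. The factor Pho4 binds the letters CACGTG, which stand in capitals in the stretch upstream of PHO5, shown because PHO5 had the largest fall of the list.
PHO5: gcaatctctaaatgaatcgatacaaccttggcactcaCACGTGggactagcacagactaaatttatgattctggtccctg
It lies at chrII:431162-431241 (minus strand). In the windows defined above, 10 of the 14 genes that fell and both that were not called held CACGTG, against 5.75% of the 5896 windows.

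URA1 had the largest called rise outside chromosomes I and XII. This gene for dihydroorotate dehydrogenase in pyrimidine synthesis had 459.8, 391 and 357 FPKM in ulp2 null 50G cells, against 64.6, 60.5 and 63.5 FPKM in WT 50G cells (log2 difference 2.65, SE 0.08, adjusted p = 1.6e-08). URA4 (chromosome XII), the preceding step, had 158, 168 and 162 FPKM in ulp2 null 50G cells, against 67.2, 73.8 and 76.2 FPKM in WT 50G cells (log2 difference 1.16, SE 0.07, adjusted p = 1.07e-06), and their activator PPR1 (chromosome XII) had 12.4, 11.5 and 11.8 FPKM in ulp2 null 50G cells, against 6.62, 6.58 and 6.47 FPKM in WT 50G cells (log2 difference 0.77, SE 0.11, adjusted p = 0.000204). URA2, which carries the first steps, rose by 0.73, and URA10 fell (-0.76). Of the 12 pyrimidine genes 3 rose, 3 fell and 6 were not called, and the call of the other faller, URA6 (-0.26), was lost with libraries scaled to an equal sum. Ppr1 binds a pair of CGG triplets that face each other 6 bases apart, CGGNNNNNNCCG. The motif is its own reverse complement and stands in capitals in the stretches that follow, shown because URA1 and URA4 are the 2 pyrimidine genes with a rise over 2-fold.
URA1: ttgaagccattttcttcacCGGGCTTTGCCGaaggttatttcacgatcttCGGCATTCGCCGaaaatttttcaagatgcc
URA4: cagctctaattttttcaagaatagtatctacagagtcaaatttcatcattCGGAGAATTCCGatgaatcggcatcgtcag
They lie at chrXI:24984-25063 (plus strand) and chrXII:963605-963684 (plus strand). In the list of 12, these 2 genes and URA3 held the motif, against 2.65% of the 5896 windows, and URA3, the plasmid marker, was far lower in ulp2 null 50G cells. The part of the URA3 level in the other values of the pathway was not tested.

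Arginine synthesis fell in 4 of 9 genes with none higher, led by ARG1 at 78.1, 87.8 and 90.6 FPKM in ulp2 null 50G cells, against 268, 291 and 284 FPKM in WT 50G cells (log2 difference -1.71, SE 0.07, adjusted p = 8.18e-08) and ARG5,6 at 52.5, 41.6 and 43.03 FPKM in ulp2 null 50G cells, against 148, 148 and 129 FPKM in WT 50G cells (ARG56 in the annotation, log2 difference -1.62). Branched-chain synthesis fell in 8 of 11 genes with 1 higher, led by LEU4 (-0.95) and ILV3 (-0.81). Across the scalings, filters and fits tried, between 2 and 8 of these genes were lower. LEU1, ILV6 and the strain marker LEU2 were not called with an equal sum. GLT1, the glutamate synthase, had 53.2, 46.2 and 46.3 FPKM in ulp2 null 50G cells, against 147, 123 and 113 FPKM in WT 50G cells (log2 difference -1.37, SE 0.11, adjusted p = 6.75e-06). Among the sulfur amino acid genes 7 of 25 fell, led by MET6 (-0.93), and 5 rose, among them SAM1 on chromosome XII (1.05) and CYS3 on chromosome I (0.81). In purine synthesis IMD2, for the GTP pathway, had 17.03, 17.6 and 14.5 FPKM in ulp2 null 50G cells, against 4.84, 5.37 and 5.004 FPKM in WT 50G cells (log2 difference 1.51, SE 0.15, adjusted p = 2.77e-05), and IMD3 (chromosome XII) rose by 1.10 and IMD4 by 0.87; these are close copies of each other. Ergosterol synthesis had 12 of 26 genes lower and 4 higher, with the regulators ECM22 (chromosome XII, 0.74) and UPC2 (0.73) among the risers. Its median of -0.22 became 0.01 with libraries scaled to an equal sum. Of the vitamin genes SNZ3 (-1.14) and SNZ2 (-0.98), close copies of each other, were among the largest falls.

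Several of the largest changes outside chromosomes I and XII belong to no single pathway. Among the rises, DSF1, a putative mannitol dehydrogenase, had 97.9, 108 and 90.7 FPKM in ulp2 null 50G cells, against 18.9, 22.4 and 22.98 FPKM in WT 50G cells (log2 difference 2.16, SE 0.10, adjusted p = 1.75e-07), and the related MAN2 rose by 1.88; their near-identity makes the separate values uncertain. PTR2, the peptide transporter, had 123, 99.6 and 102 FPKM in ulp2 null 50G cells, against 28.7, 23.1 and 23.3 FPKM in WT 50G cells (log2 difference 2.07, SE 0.16, adjusted p = 3.84e-06). YCR099C, near the right end of chromosome III, had 38.9, 41.9 and 46.2 FPKM in ulp2 null 50G cells, against 6.98, 9.598 and 7.63 FPKM in WT 50G cells (log2 difference 2.26, SE 0.12, adjusted p = 5.4e-07). SAE3, a meiotic recombination factor, rose by 1.95 from low values, and YPR145C-A by 1.93. YNL067W-B was listed at 0 in all 3 WT 50G cultures and at 8.22, 3.697 and 3.197 FPKM in ulp2 null 50G cells, and its call was lost without ulp2 null 50G replicate 1 or 2 or WT 50G replicate 1, 2 or 3 (between 2.15 and 2.64). Among the falls, DPC7 had 150.4, 163 and 134 FPKM in ulp2 null 50G cells, against 722, 644 and 614 FPKM in WT 50G cells (log2 difference -2.14, SE 0.13, adjusted p = 1.32e-06), and PDH1, a mitochondrial enzyme of the propionate pathway, had 126, 110.4 and 114 FPKM in ulp2 null 50G cells, against 435, 390.4 and 379 FPKM in WT 50G cells (log2 difference -1.78, SE 0.08, adjusted p = 1.75e-07). YNR075C-A was called lower too (-3.89), but its groups overlapped, with 0, 78.6 and 0 FPKM in ulp2 null 50G cells, against 127, 46.3 and 41.5 FPKM in WT 50G cells.

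Genes of the cell cycle and of chromosome segregation moved in both directions. CLN2, the G1 cyclin downstream of CLN3, had 17.3, 17.2 and 19.9 FPKM in ulp2 null 50G cells, against 43.5, 42.1 and 44.4 FPKM in WT 50G cells (log2 difference -1.21, SE 0.11, adjusted p = 1.6e-05), and PCL1 (-0.72) and SWI5 (-0.86) fell with it. All 5 rises among the 21 cyclin and G1 genes were on chromosomes I and XII, and all 7 falls elsewhere. The small subunits of ribonucleotide reductase fell, RNR2 with 312, 300.4 and 306 FPKM in ulp2 null 50G cells, against 642, 671 and 619 FPKM in WT 50G cells (log2 difference -1.07, SE 0.06, adjusted p = 5.4e-07) and RNR4 by 1.06 on the log2 scale, and RFX1 (chromosome XII), which represses them, rose by 0.95. Of 36 kinetochore and checkpoint genes 8 fell and 3 rose, beside 18.1% lower and 18.7% higher among all genes tested. MTW1 (chromosome I) rose by 1.02 and NNF1 (chromosome X), a member of the same kinetochore complex, fell (-0.94). Of 26 genes for cohesin, condensin and the Smc5/6 complex 5 rose and 5 fell, with SMC6 (0.79), YCS4 (0.69) and NSE1 (0.68) of chromosome XII among the rises and ECO1, the cohesin acetyltransferase, among the falls (-0.69). Of 38 cell wall genes 19 rose and 6 fell (median 0.30), led by the protease YPS3 (chromosome XII, 1.31), TIR1 (1.18) and DAN1 (1.16), the last 2 of which are also in the hypoxic list. Of 25 meiotic genes, silent or low in dividing haploids, 10 rose and 2 fell; RED1 (chromosome XII) had 33.8, 37.8 and 39.2 FPKM in ulp2 null 50G cells, against 11.7, 14.4 and 14.6 FPKM in WT 50G cells (log2 difference 1.39, SE 0.22, adjusted p = 0.000516).

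In the SUMO pathway itself ULP2 had by far the largest change. Of 14 genes 1 was higher and 4 lower, beside 18.7% higher and 18.1% lower among all genes tested. Apart from ULP2, 3 were called lower: the ligase MMS21 (-0.60) and the subunits of the activating enzyme, UBA2 (-0.26) and AOS1 (-0.26). All 3 lost their call with an equal sum (-0.39, -0.04 and -0.04). The call of MMS21 was also lost without ulp2 null 50G replicate 1 or WT 50G replicate 2 or 3 (between -0.55 and -0.48), that of UBA2 without ulp2 null 50G replicate 2 or 3 or WT 50G replicate 2 or 3 (between -0.28 and -0.20) and that of AOS1 without ulp2 null 50G replicate 1 or 2 or WT 50G replicate 2 or 3 (between -0.27 and -0.22). CST9, a meiotic ligase on chromosome XII, was higher (0.58). SMT3, which encodes SUMO, had 643, 697 and 701 FPKM in ulp2 null 50G cells, against 555, 703 and 788 FPKM in WT 50G cells (log2 difference 0.01, adjusted p = 0.975), with overlapping groups. The other protease ULP1 (0.00), the conjugating enzyme UBC9 (0.17), the ligases SIZ1 (0.00) and NFI1 (0.07), the SUMO-targeted ubiquitin ligase SLX5 (0.07) and SLX8 (0.03), ULS1 (-0.06) and WSS1 (0.11) were not called. Of the 11 genes of the CCR4-NOT complex CCR4 (0.46) and CAF130 (0.24) were higher, and DHH1 (-0.34) and CAF40 (-0.19) lower. These counts, 2 higher and 2 lower, lay near the shares over all genes tested (18.7% and 18.1%). The call of CAF130 was lost without ulp2 null 50G replicate 1, 2 or 3 or WT 50G replicate 2 or 3 (between 0.22 and 0.26). That of DHH1 was lost with an equal sum (-0.12), where CAF40 turned to 0.03, and the call of CAF40 was lost without ulp2 null 50G replicate 3 or WT 50G replicate 3 (between -0.17 and -0.15). POP2 (-0.05), CDC39 (0.04), CDC36 (-0.18), NOT3 (-0.04), NOT5 (-0.07), MOT2 (-0.31) and CAF16 (-0.17) were not called. CCR4 was thus the member with the largest rise, and the only member on chromosome I or XII. Of 10 genes for silencing of the rDNA, all outside chromosomes I and XII, 3 fell, beside 20.0% lower among all genes there. They were CDC14 (-0.75), SIR2 (-0.52, not called with an equal sum) and SRC1 (-0.25). The call of SRC1 was lost when any single culture was left out (between -0.28 and -0.21).

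None of the 70 snoRNA genes tested was called in limma, 41 of the C/D and 29 of the H/ACA class, and 2 had an unadjusted p under 0.05. Values differed widely within a group: SNR61 had 0, 157 and 161 FPKM in ulp2 null 50G cells, against 86.1, 62.05 and 0 FPKM in WT 50G cells, SNR55 199, 26.1 and 185 FPKM in ulp2 null 50G cells, against 78.8, 91.2 and 0 FPKM in WT 50G cells and SNR57 145, 129 and 198 FPKM in ulp2 null 50G cells, against 0, 77.03 and 0 FPKM in WT 50G cells. Genes at 0 in some cultures are only listed at 0, and the labels name polyA RNA while the methods name total RNA. The groups overlapped for SNR61 and SNR55 but not for SNR57 (log2 difference 5.19, SE 1.98, adjusted p = 0.0627), which passed the threshold under 4 alternatives (adjusted p 0.0114 to 0.0477) and missed it under the others (up to 0.191).

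Near the ends of the other 14 chromosomes rises were more frequent than in their interior. Within 10 kb of an end 18 of 89 genes were higher and 5 lower (median 0.13), and between 10 and 20 kb 35 of 112 were higher and 19 lower, against 548 higher and 1026 lower of 4781 genes more than 50 kb from an end (median -0.07). This contrast between positions was not tested. Many genes there belong to families of near-identical copies. SOR2, a sorbitol dehydrogenase, had 26.9, 23.9 and 21.8 FPKM in ulp2 null 50G cells, against 9.53, 10.2 and 9.37 FPKM in WT 50G cells (log2 difference 1.23, SE 0.16, adjusted p = 0.000166), and its near-identical copy SOR1 rose by 1.13. The seripauperin gene PAU3 (1.39), MAN2 and IMD2 also lay within 10 kb of an end.

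Finally, the difference between strains at 50G was set against that at 500G (ulp2 null 500G minus WT 500G) in the same fit. The strain effect differed between passages in 22.7% of genes (1494 of 6572), in 368 of 557 genes of chromosome XII (359 with the more positive difference at 50G) and in 60 of 116 of chromosome I (55 with the more positive difference at 50G). At 500G the median difference was -0.05 on chromosome I and 0.02 on chromosome XII. Of the RP genes 63 of 81 of the large and 51 of 56 of the small subunit differed, all towards a higher value at 50G, and their medians at 500G were 0.09 and 0.11. The TCA cycle (18 of 20 genes, all more negative at 50G, median -0.11 at 500G) and the chaperones (18 of 29, all more positive at 50G, median -0.14 at 500G) also differed between passages. SSA4 had a log2 difference of 1.84 at 50G and -0.06 at 500G (difference 1.90, adjusted p = 4.2e-05). In the phosphate regulon 4 of 16 genes differed between passages and its median was -0.44 at 500G. URA1 stayed high, with 3.10 at 500G (difference -0.45, adjusted p = 0.0211), and PTR2 (1.66 at 500G, adjusted p of the difference 0.221) and GRE1 (-1.53, adjusted p of the difference 0.634) showed no called change of the effect.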

How the data were processed

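RNA was taken from 12 cultures in 4 groups of 3 (ulp2 null and WT cells at 50G and 500G). The authors trimmed the reads, aligned them with TopHat2 (version 2.1.1 in the submitters' processing notes) to the Ensembl R64-1-1 genome, used only uniquely placed reads, and deposited FPKM values from Cufflinks (version 2.2.1). The libraries were made with a stranded TruSeq kit and shared a lane, and the labels name polyA RNA while the extraction protocol names total RNA. The table holds 12 columns of FPKM, all used, with 0 columns left out, and no read counts, so depth is unknown.

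The test was limma 3.58.1 in R 4.3.3 on log2(FPKM + 1) (moderated statistics with a trend, all 12 libraries in the model, two-sided, Benjamini-Hochberg adjustment over 6572 genes with a mean of at least 1 FPKM). On simulated data for this comparison with 6572 genes, of which 200 were changed, 89.5% of those were recovered and 6.28% of calls were false. In the real data 36.9% of genes were called, many by smaller differences than those simulated. The simulated rates need not hold for such calls. Of the 7126 IDs 6048 matched the RefSeq R64 annotation by locus tag and 114 by symbol, and 964 did not match. A few genes are not reported here. The members and gene lists were chosen with earlier results of these data known. Named were strain markers, the 10 largest rises and falls outside chromosomes I and XII and the 5 on each of them among genes without overlap of the groups, the 4 largest called genes per list, and genes of interest to the study. Further members, overlapping genes and genes that were not called were added after their values were seen. Alternatives were other scalings, filters, pseudocounts and fits, a replicate block, a stricter threshold, and leaving out each culture of the comparison.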

Additional observations from a re-analysis of the deposited data

Results flagged for a closer look

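Some genes and chromosomes stood out because the difference between strains (ulp2 null minus WT) was not the same at 50G and at 500G by the test of that difference itself, in limma across all genes with Benjamini-Hochberg adjustment. Each value that follows is the log2 difference at 50G minus that at 500G. On chromosome XII 368 genes met the test and on chromosome I 60 genes.

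More positive at 50G were YLR412C-A (3.42), NCW2 (2.43) and CST9 (0.52) of chromosome XII, and DFP2 (3.56) and CCR4 (0.66) of chromosome I. More positive elsewhere were the iron gene FIT3 (3.09), YPR145C-A (2.73), the chaperone SSA4 (1.90), MAN2 (1.58), YCR099C (1.34), DSF1 (1.12), the ribosomal protein genes RPS18B (1.08), RPL12B (0.88) and RPL32 (0.87), and CAF130 (0.40).

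More negative at 50G were IDP2 (-0.98), ACO1 (-0.83), SDH2 (-0.51) and FBP1 (-0.50) of chromosome XII and GDH3 (-0.83), YAT1 (-0.61) and ACS1 (-0.47) of chromosome I. Elsewhere SIP18 (-1.94), DPC7 (-1.88), PDH1 (-1.67), PHO5 (-0.76) and URA1 (-0.45) were more negative. URA1 was higher in ulp2 null cells at both passages, and its value means a larger rise at 500G. Groups of 3 cultures are too small for a search for single outlying cultures.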

How the results depend on the processing

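With libraries scaled to an equal sum over genes that are neither on chromosomes I and XII nor ribosomal, 2067 genes were higher and 424 lower, 512 and 39 of them over 2-fold. Outside chromosomes I and XII 254 were higher and 38 lower over 2-fold, and higher genes made up 78.0% of the calls, against 37.4% without that scaling. The medians of chromosome I, chromosome XII and the other chromosomes became 0.82, 0.92 and 0.16. Of the named genes that were called, ARO3 (log2 difference 0.0096) and CAF40 (0.031) changed direction. Scaling by the median of ratios gave the other chromosomes a median of -0.012. An adjusted p under 0.01 left 761 genes lower and 868 with a strain effect that differed between passages, fewer because the threshold was stricter. The cause of the scaling changes was not tested. With the replicate number as a block (replicate block), 1446 genes were higher and 1593 lower. Over all genes, cultures that share a number in both groups at 50G showed little joint deviation (correlations 0.049, 0.071 and -0.004). The numbers were not taken as pairs, although the block fit called more genes than the main fit (1232 higher and 1191 lower). Whether the numbers mark a shared batch was not tested. Of 249 genes named by rule, 205 stayed on the same side of the threshold in every setting that gave them a value (14 or 15). Of these 205, 13 genes that were not called changed sign in at least 1 setting. Leaving out any single culture kept each of these counts within 1.5 times its value. The values carry no read counts, so weakly expressed genes have an unknown counting error, and genes listed at 0 may be failed estimates. With 3 cultures per group no exact test of a single value can go under p = 0.1.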

Other observations

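Further gene lists complete the account of pathways. For genes regulated by nitrogen quality, 4 of 33 genes were higher and 12 lower (median -0.27). For aromatic amino acid synthesis, 0 of 12 genes were higher and 4 lower (median -0.19), and the list includes TRP1. For histidine synthesis, 1 of 7 genes were higher and 4 lower (median -0.35), and for lysine synthesis, 1 of 8 genes were higher and 3 lower (median -0.08). The histidine list includes the strain marker HIS3, and between 1 and 5 of its genes were lower across the scalings, filters and fits tried. Among the other amino acid pathways 2 of 18 genes were higher and 8 lower (median -0.19), GDH3 and GLT1 with the largest falls. For aminoacyl-tRNA synthetases, 3 of 20 genes were higher and 5 lower (median -0.05). For histones, 1 of 11 genes were higher and 1 lower (median -0.22), and for genes of DNA damage and ribonucleotide reductase, 4 of 15 genes were higher and 3 lower (median 0.13).

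Genes of mating were mixed in these MATa cells. Of the alpha-specific genes, which a MATa cell keeps silent, 2 of 4 genes were higher and 0 lower (median 0.07). STE3, the receptor for a-factor, had 11.6, 8.61 and 7.81 FPKM in ulp2 null 50G cells, against 5.36, 3.91 and 5.12 FPKM in WT 50G cells (log2 difference 0.83, SE 0.16, adjusted p = 0.00196). Of the haploid pheromone response list, 3 of 11 genes were higher and 3 lower (median 0.06). Among the lists of this section, the medians of nitrogen-regulated genes and histidine synthesis stayed negative across the scalings, filters and fits tried (at most -0.05 and -0.12). The other negative list medians turned positive with an equal sum. By comparison 18.7% of all genes tested were higher and 18.1% lower.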
